A study of Mus musculus with 18 samples.

Results

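The comparison concerned 6 of the 18 sequenced B16F10 tumors: the 3 that received the ribozyme PS473 together with cationic polymers (PS473@CPs) and the 3 that received the same ribozyme alone (Free PS473). The tumors were taken by their treatment label, and no measured value entered the choice. Of the 41079 genes in the expression table, the 12357 with a mean of at least 1 FPKM (fragments per kilobase of gene, scaled to 1000000 fragments per tumor) over the 18 tumors were compared. B16F10 is a mouse melanoma line that grows in C57BL/6 mice, the strain the line comes from. All mice were females with a subcutaneous tumor in the right flank, and injections into the tumor began on day 6 at a volume near 50 mm3 and were repeated every 2 days. The 3 tumors injected with PBS, the vehicle, gave the level without ribozyme or polymer. Tumors given the polymers without ribozyme, or with an inactive ribozyme, were not analysed here, so that the effect of the polymers and that of the ribozyme they carried cannot be told apart. The age of the mice, the time from the last injection to collection of the sequenced tumors and the identity of the polymer used in mice are not given in the sources used here.

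Cationic polymers bind the negatively charged backbone of RNA and form particles that cells take up into endosomes. RNA in endosomes or the cytosol can be sensed by Toll-like receptors and by RIG-I and MDA5, whose signals induce interferon. Interferons act through JAK kinases and STAT factors on interferon-stimulated genes, which include antiviral proteins and the MHC class I machinery that presents peptides to T cells, and Cd274 itself is induced by interferon gamma. The product of Cd274 is PD-L1, the ligand through which tumor cells restrain T cells that carry PD-1.

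PS473 belongs to the Pistol class, a small RNA that cleaves RNA between a G and a U. The first sequence is the ribozyme in its base design, with the bases that pair with its target in capitals (10 at the 3′ end and 4 within), and the second is the matching stretch of the Cd274 transcript, with the 16-base target of that design in capitals. The G of the cleaved GU lies at position 473 of the coding sequence.
PS473, base design: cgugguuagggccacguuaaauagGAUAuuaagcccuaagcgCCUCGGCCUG
Cd274 target: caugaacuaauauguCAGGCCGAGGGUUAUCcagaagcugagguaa
In mouse build GRCm38 with the GENCODE annotation, the stretch lies on the plus strand at chr19:29380357-29380402, and the target runs from 29380372 to 29380387. It is coding sequence in exon 4 of 7 (29380304 to 29380588) of Cd274, a gene that runs from 29367455 to 29388095. The study went on under the name PS473 with a form that has a longer 3′ arm. The arm of M5, an inactive construct with the same recognition domain, pairs with 16 bases before the GU, from 29380366. The sequence listed for the longer form holds a stretch of 17 bases that occurs again within it, and it is not printed here.

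Depth was recovered from the steps between low FPKM values and lay between 17212000 and 28401000 assigned fragments over the 18 tumors. It was 20106000 to 25653000 in Free PS473 and 20167000 to 28401000 in PS473@CPs. The tumors differed in the tissue around the melanoma: PS473@CPs 2 and Free PS473 3 were rich in skin transcripts, and so were PBS 2 and PBS 3. PS473@CPs 3 held some as well. The mean log2(FPKM + 1) of 31 skin genes was 0.29, 5.84 and 1.75 in PS473@CPs and 0.30, 0.32 and 2.95 in Free PS473. In whole tumors, fewer cells of a type and less RNA per cell cannot be told apart. The labels do not say more of the replicates than that each is a tumor, and the p-values measure the spread between these tumors. Melanocyte genes fit the labelled cell line in every tumor, with Pmel, a pigment granule protein, at 1093, 986 and 1583 FPKM in PS473@CPs and 1059, 1582 and 893 FPKM in Free PS473.

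No gene met an adjusted p under 0.05 and a change above 2-fold in limma with Benjamini-Hochberg adjustment (0 of 12357, 0.0%). The lowest adjusted p was 0.877, shared by Ifitm3 and ND4L, and that of every other gene was at least 0.9995. At an unadjusted p under 0.05, 197 genes were higher in PS473@CPs (1.59%) and 318 were lower (2.57%). With a change above 2-fold as well, 75 genes were higher (0.607%) and 17 were lower (0.138%). The log2 difference was above 0 for 4817 genes (39.0%) and below 0 for 7540 (61.0%), around a median of -0.038. For 222 genes all 3 PS473@CPs tumors lay above all 3 Free PS473 tumors (1.8%), and for 710 they lay below (5.75%).

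Distances between tumors of different groups overlapped those between tumors of the same group. The root mean square difference in log2(FPKM + 1) was 0.327 to 0.858 over the 9 pairs between groups, with a median of 0.493. It was 0.267 to 0.633 within Free PS473 and 0.372 to 0.785 within PS473@CPs. Of the 75 higher genes, 50 belonged to a gene list: 19 were interferon-stimulated genes, 12 were mitochondrially encoded, 4 belonged to MHC class I presentation, 3 to MHC class II presentation and 3 to T and NK cells. These lists held, in that order, 67, 13, 21, 9 and 7 of the genes tested. Of the 12357 genes tested, 752 belonged to a list, and some belonged to more than 1. Of the 17 lower genes, 5 were erythroid (of 7 tested), 2 belonged to the unfolded protein response (of 24) and 9 were shorter than 200 nucleotides (of 488).

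**Figure D1:**
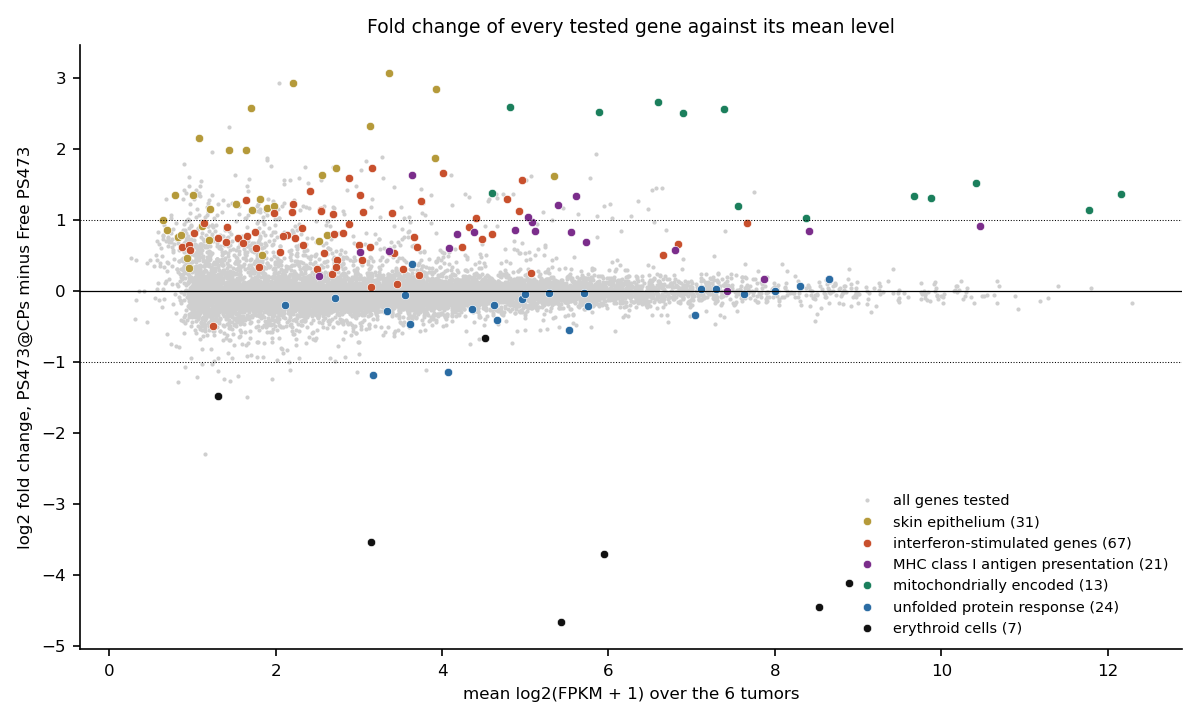
Log2 fold change (PS473@CPs minus Free PS473, on the log2(FPKM + 1) scale) of each of the 12357 genes tested, against its mean log2(FPKM + 1) over the 6 tumors. Dotted lines mark a 2-fold change and colors mark members of 6 lists. All 13 mitochondrially encoded genes and all 21 MHC class I genes lie above 0, 66 of the 67 interferon-stimulated genes do, and the 7 erythroid genes lie below it.

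The RNA that PS473 was designed to cleave did not differ detectably between the groups. Cd274 measured 11.9, 12.6 and 24.5 FPKM in PS473@CPs and 12.3, 11.7 and 14.0 FPKM in Free PS473. The groups overlapped, and PS473@CPs 3 alone lay above the other 5 tumors. The log2 difference was 0.27 (SE 0.34, 95% interval -0.45 to 0.99, two-sided exact permutation p = 0.6, where 0.1 is the smallest p that 3 against 3 allows). Without PS473@CPs 3 the difference turned to -0.043. PBS tumors held 21.5, 15.7 and 12.3 FPKM, and the log2 differences from PBS were -0.055 for PS473@CPs and -0.33 for Free PS473. An interval that spans 0 leaves room for a lower as well as a higher level, and the protein was not measured in these data.

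Of the other checkpoint genes, 8 more were expressed enough to be tested, and 5 of the 9 in all were higher in PS473@CPs, with a list median of 0.051 (-0.043 without PS473@CPs 3). Havcr2, which encodes the receptor TIM-3, measured 1.2, 2.93 and 1.74 FPKM in PS473@CPs and 0.967, 0.858 and 1.54 FPKM in Free PS473 (log2 difference 0.45, unadjusted p = 0.0473). It was the 1 member of the list at an unadjusted p under 0.05 (1.59% higher over all genes tested).

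The genes for interferons beta and gamma were at or near 0 in most tumors. Ifnb1, the gene for interferon beta, was listed at 0 in all 3 PS473@CPs tumors and at 0, 0 and 0.114 FPKM in Free PS473. Ifng, the gene for interferon gamma, measured 0.369, 1.2 and 0.233 FPKM in PS473@CPs and 0.103, 0.129 and 0.313 FPKM in Free PS473. Neither gene passed the filter, so neither was tested. The receptor subunit Ifnar1 had a log2 difference of -0.041, the receptor subunit Ifngr1 one of 0.18, and the RNA-sensing adaptor Mavs one of -0.074.

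Among the 21 cytosolic nucleic acid sensors and adaptors tested, 16 were higher in PS473@CPs and 5 had an unadjusted p under 0.05, all higher. Those shares were 39.0% and 1.59% over all genes tested. The median of the list was 0.31, beside -0.038 over all genes tested. The largest difference was that of Irf7, which also belonged to the interferon-stimulated list and is described below. Rigi, which encodes the RNA sensor RIG-I and is itself interferon-stimulated, measured 4.07, 3.85 and 9.16 FPKM in PS473@CPs and 4.01, 2.45 and 2.76 FPKM in Free PS473 (log2 difference 0.65, SE 0.29, unadjusted p = 0.0398). Zbp1, a sensor of nucleic acids in the Z form, measured 4.82, 12.4 and 26.1 FPKM against 1.35, 2.25 and 9.12 FPKM (log2 difference 1.59, SE 0.60, unadjusted p = 0.019). In both genes the lowest PS473@CPs tumor fell inside the range of Free PS473. The DNA sensor gene Cgas had a log2 difference of -0.031 and its partner Sting1 one of 0.18. Of the 17 interferon ligands, receptors and JAK-STAT members, 14 were higher and 5 had an unadjusted p under 0.05, with a median of 0.18. Without PS473@CPs 3, Free PS473 1 or Free PS473 2 these counts of 5 were 1, 2 and 2 for the sensors and 2, 1 and 1 for the ligands, receptors and JAK-STAT members, and without PS473@CPs 1 they were 8 and 7.

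Among the transcription factors of the pathway, Irf7 and Irf9 separated the groups. Irf7, the master regulator of type I interferon genes, measured 7.49, 16.4 and 28.6 FPKM in PS473@CPs and 5.08, 1.7 and 6.21 FPKM in Free PS473. The groups did not overlap, and the log2 difference was 1.73 (SE 0.52, unadjusted p = 0.0046, 0.63 to 2.84 as 95% interval). Irf9, a DNA-binding factor of the type I interferon response, measured 12.3, 14.5 and 19.6 FPKM against 9.99, 8.06 and 10.6 FPKM, again without overlap (log2 difference 0.62, SE 0.20).

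Interferon-stimulated genes were the largest group on the higher side. Of 67 tested, 66 had a log2 difference above 0 and 38 an unadjusted p under 0.05, all higher; none had an adjusted p under 0.05 in limma. The median was 0.76, beside -0.038 over all genes tested, and in 22 members the groups did not overlap. Over all genes tested, 1.59% were higher at an unadjusted p under 0.05 and 1.8% were higher without overlap. The mean log2(FPKM + 1) of the list was 2.89, 3.21 and 3.89 in PS473@CPs and 2.50, 2.19 and 2.95 in Free PS473. Free PS473 3 thus lay above PS473@CPs 1.

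Tgtp2, an interferon-induced GTPase that acts on intracellular parasites, measured 16.0, 20.9 and 33.1 FPKM in PS473@CPs and 6.04, 6.26 and 13.9 FPKM in Free PS473 (log2 difference 1.35, SE 0.41). Apol9b measured 12.0, 11.3 and 29.6 FPKM against 4.28, 2.8 and 7.97 FPKM (log2 difference 1.59, SE 0.49). Bst2, the protein tetherin that holds budding viruses at the membrane, measured 278, 235 and 339.9 FPKM against 143, 108 and 195 FPKM (log2 difference 0.96, SE 0.28). In these 3 genes every PS473@CPs tumor lay above every Free PS473 tumor, by the least in Tgtp2. Ifitm3, which blocks viral entry from endosomes and was not a member of the list, had the lowest p of all genes: 304, 324 and 431 FPKM in PS473@CPs and 127, 103 and 176 FPKM in Free PS473. It was 2.63-fold higher in PS473@CPs (log2 difference 1.39, SE 0.26, unadjusted p = 8.34e-05, adjusted p = 0.877 in limma), and with each tumor left out in turn the difference stayed between 1.22 and 1.60.

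The members did not all share this pattern. Isg15, a ubiquitin-like protein that is among the classic interferon targets, measured 20.6, 28.0 and 52.2 FPKM in PS473@CPs and 24.6, 7.41 and 28.0 FPKM in Free PS473, with overlap (log2 difference 0.81, unadjusted p = 0.124). Ifit1, which binds foreign RNA ends, overlapped too, at 5.44, 6.81 and 15.0 FPKM against 5.99, 1.66 and 6.93 FPKM (log2 difference 0.82, unadjusted p = 0.114). Isg20, an exonuclease, was the member with a difference below 0, at 0.497, 1.11 and 1.53 FPKM against 2.74, 0.65 and 2.61 FPKM (log2 difference -0.49). The count at an unadjusted p under 0.05 rested on single tumors: it was 7 without PS473@CPs 3, 9 without Free PS473 2 and 17 without Free PS473 1, while the median stayed between 0.45 and 0.97 with each tumor left out.

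**Figure D2:**
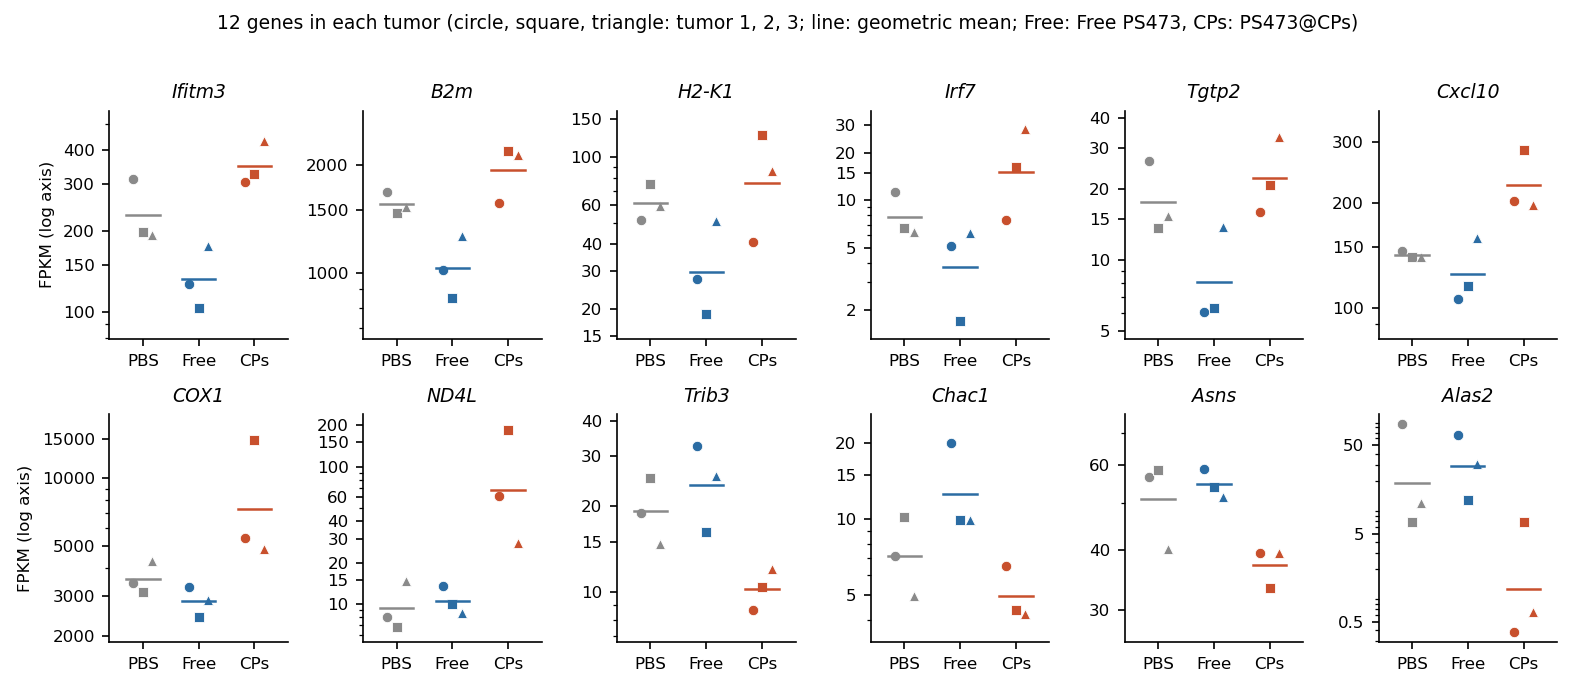
FPKM (log axis) of 12 genes in each PBS, Free PS473 and PS473@CPs tumor, with circle, square and triangle for tumors 1, 2 and 3 and a line at the geometric mean of each group. Ifitm3, B2m, Irf7, Tgtp2, Cxcl10, COX1 and ND4L were higher in every PS473@CPs tumor than in every Free PS473 tumor, Trib3, Chac1, Asns and Alas2 were lower in every one, and H2-K1 overlapped.

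Promoters of named genes were read to show the element through which IRF9 and its partners act. These were named members of the interferon-stimulated, MHC class I and chemokine lists, genes that the study names, and the leading genes on the higher side. The interferon-stimulated response element was searched on both strands, as GAAA, any 2 bases and GAAA again, in the 250 bases before each gene start, from RefSeq promoters of build GRCm38.p6. Overlapping matches were allowed. Matches, in capitals, were found in 7 of the 26 named genes that had a promoter in the table, and windows of 60 bases are shown for 4 of them whose groups did not overlap and for Isg15, which overlapped between them.
Tgtp2 (chr11:49064248-49064307, minus strand): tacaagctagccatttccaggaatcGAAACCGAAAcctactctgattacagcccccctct
Bst2 (chr8:71537565-71537624, minus strand): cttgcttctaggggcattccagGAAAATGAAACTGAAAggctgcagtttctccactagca
B2m (chr2:122147523-122147582, plus strand): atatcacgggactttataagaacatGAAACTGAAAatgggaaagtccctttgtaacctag
Cxcl10 (chr5:92349068-92349127, minus strand): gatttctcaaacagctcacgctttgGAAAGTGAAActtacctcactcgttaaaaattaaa
Isg15 (chr4:156200856-156200915, minus strand): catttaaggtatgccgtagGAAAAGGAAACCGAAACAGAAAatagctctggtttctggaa
Counts are by gene, and a match in any promoter of a gene was enough. The element was present in 24 of 49 genes of the interferon-stimulated list (49.0%) and in 3 of 18 of the MHC class I list (16.7%). It was present in 290 of 9214 genes tested that had a promoter (3.15%) and in 936 of all 27025 genes (3.46%), which had 32851 promoters. The gamma-activated sequence, searched as TTCNNNGAA, was present in 9 of the 49 (18.4%) and in 7.0% of the genes tested. A match is a description of the letters and was not tested for binding.

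Genes of MHC class I presentation were higher on average, but most overlapped between the groups. All 21 tested had a log2 difference above 0, with a median of 0.83, and 13 had an unadjusted p under 0.05. Over all genes tested, 39.0% lay above 0 and 1.59% were higher at that p. In 2 of the 21 the groups did not overlap, beside 1.8% higher without overlap over all genes tested. The mean log2(FPKM + 1) of the list was 5.49 in PS473@CPs 1, below the 5.77 of Free PS473 3. B2m, the light chain that every class I molecule needs, measured 1572, 2182 and 2127 FPKM in PS473@CPs and 1019, 850.3 and 1270 FPKM in Free PS473. The groups did not overlap (log2 difference 0.91, SE 0.22, unadjusted p = 0.000937). H2-K1, a class I heavy chain, measured 40.5, 126 and 86.5 FPKM against 27.3, 18.9 and 50.7 FPKM (log2 difference 1.33, SE 0.41, unadjusted p = 0.00527). PS473@CPs 1 was below Free PS473 3 in this gene.

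The list also held genes that supply class I molecules with peptides. Psmb9, a subunit of the immunoproteasome that cuts proteins into peptides, measured 34.4, 44.3 and 64.1 FPKM in PS473@CPs and 14.6, 16.2 and 43.2 FPKM in Free PS473 (log2 difference 1.05, SE 0.37). Tap1, which carries peptides into the endoplasmic reticulum, measured 32.0, 46.2 and 64.5 FPKM against 20.8, 19.6 and 37.7 FPKM (log2 difference 0.85, SE 0.34). In Psmb9 and Tap1, PS473@CPs 1 lay below Free PS473 3. Nlrc5, the transactivator of class I genes, measured 20.3, 16.2 and 24.0 FPKM against 11.2, 12.3 and 15.2 FPKM without overlap, but its p was 0.174 unadjusted (log2 difference 0.60, SE 0.42). The H2 heavy chains are near-identical copies, as are several Ifit, Gbp, Oas and hemoglobin genes, and how reads shared between copies were assigned is not given in the sources used here. The count of 13 was 3 without Free PS473 2, 4 without Free PS473 1 or PS473@CPs 3 and 8 without PS473@CPs 2, and the median was 0.61 to 1.09 with each tumor left out.

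Class II presentation and lymphocyte genes were higher as well. All 9 class II genes had a log2 difference above 0, with a median of 0.91, and in each of them the groups overlapped. At an unadjusted p under 0.05 there were 3, or 0 when the 6 tumors were fitted alone, beside 1.59% higher over all genes tested. Cd74, the invariant chain that guards the class II groove, measured 78.7, 145 and 289 FPKM in PS473@CPs and 25.6, 53.4 and 121 FPKM in Free PS473 (log2 difference 1.42, SE 0.57, unadjusted p = 0.0253). The count of 3 was 0 without Free PS473 1, Free PS473 2 or PS473@CPs 3, 1 without PS473@CPs 2 and 6 without PS473@CPs 1 or Free PS473 3. The median was 0.50 without Free PS473 2 and 1.57 without Free PS473 3.

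Of 28 T and NK cell genes in the table, 7 passed the filter. All 7 were higher, with a median of 1.09, and 4 had an unadjusted p under 0.05 (1.59% higher over all genes tested). In 3 the groups did not overlap (1.8% higher without overlap over all genes tested). Gzmb, the killer protease granzyme B, measured 0.525, 3.77 and 4.04 FPKM in PS473@CPs and 0.378, 0.0773 and 0.485 FPKM in Free PS473, without overlap but with PS473@CPs 1 just above Free PS473 3 (log2 difference 1.35, SE 0.50). Trbc1, a constant region of the T cell receptor beta chain, measured 1.39, 2.04 and 3.06 FPKM against 0.503, 0.15 and 0.569 FPKM (log2 difference 1.15, SE 0.42, unadjusted p = 0.0154). The defining T cell genes stayed under the filter: Cd8a measured 0.333, 1.07 and 0.956 FPKM against 0.0795, 0.0996 and 0.514 FPKM, and Cd4 0.0488, 0.346 and 0.245 FPKM against 0.129, 0.0627 and 0.338 FPKM. Without PS473@CPs 2 the list median was 0.57 and the count 2, and the count was also 2 without Free PS473 2 or PS473@CPs 3 and 6 without PS473@CPs 1.

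Cxcl10, the interferon-induced chemokine that attracts T cells, measured 203, 283 and 198 FPKM in PS473@CPs and 106, 116 and 159 FPKM in Free PS473. The groups did not overlap (log2 difference 0.85, SE 0.29, unadjusted p = 0.0113, exact permutation p = 0.1). Of the 17 chemokines tested, 14 were higher and 2 had an unadjusted p under 0.05 (39.0% and 1.59% over all genes tested). The count of 2 was 11 without Free PS473 3, 6 without PS473@CPs 1, 0 without PS473@CPs 2 and 1 without each of the others. Cxcl9, which signals through the same receptor, measured 3.64, 19.96 and 10.48 FPKM against 1.53, 1.94 and 13.5 FPKM and overlapped (log2 difference 1.12, SE 0.62).

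Immune cell content moved with these genes in part, and its share in them was not tested. Of 22 macrophage and monocyte genes, 19 were higher with a median of 0.45, and 1 had an unadjusted p under 0.05, the monocyte marker Ly6c2. The shares above 0 and higher at that p were 39.0% and 1.59% over all genes tested. Adgre1, which encodes the macrophage marker F4/80, measured 3.14, 4.15 and 3.67 FPKM in PS473@CPs and 2.68, 1.29 and 8.36 FPKM in Free PS473 (log2 difference 0.11, SE 0.43). Free PS473 3 held the highest macrophage level of the 6 tumors and also the highest interferon-stimulated, class I and class II levels of its group. Without it the macrophage median was 1.07 and 14 of the 22 genes had an unadjusted p under 0.05, and without Free PS473 2 the median was 0.027.

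The second group on the higher side was the mitochondrial genome, which encodes 13 proteins of the respiratory chain and ATP synthase. All 13 had a log2 difference above 1, with a median of 1.38, 12 had an unadjusted p under 0.05 and 9 did not overlap between the groups. Over all genes tested, the shares higher at that p and higher without overlap were 1.59% and 1.8%. COX1, the catalytic subunit of cytochrome oxidase, measured 5417, 14856 and 4860 FPKM in PS473@CPs and 3306, 2428 and 2891 FPKM in Free PS473 (log2 difference 1.36, SE 0.36, unadjusted p = 0.00179). ND4L, a small subunit of complex I, measured 60.9, 185 and 27.9 FPKM against 13.5, 10.1 and 8.58 FPKM (log2 difference 2.59, SE 0.51, unadjusted p = 0.000142, adjusted p = 0.877 in limma).

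The size of the difference was uneven along the genome. It was largest for ATP8 (2.66), ND4L (2.59), ATP6 (2.56), COX3 (2.52) and COX2 (2.50), and smallest for ND5 (1.02), CYTB (1.15) and ND6 (1.19). PS473@CPs 2 stood out: COX2 was 1502 FPKM there and 139 and 106 FPKM in the other two, against 51.0, 44.6 and 51.3 FPKM in Free PS473. ATP8 and ATP6 overlap on the mitochondrial genome, as do ND4L and ND4, so that reads at the overlap could count for either. In Free PS473, COX1 rested on 94454 to 102692 fragments, but COX2 on 701 to 782, COX3 on 382 to 462 and ND4L on 54 to 81. How reads that match several places in the genome were assigned is not given in the sources used here. Its part in the uneven differences was not tested. Mitochondrial genes took 1.83, 5.39 and 1.52% of all assigned fragments in PS473@CPs and 1.17, 0.870 and 0.939% in Free PS473. Without PS473@CPs 2 the median was 0.85 and 8 genes had an unadjusted p under 0.05.

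Nuclear genes for the same complexes had differences near 0. Of 54 nuclear-encoded subunits, 22 were higher and 32 lower, with a median of -0.021, and none had an adjusted or unadjusted p under 0.05 in limma. The median was 0.12 without Free PS473 3 and 0.0079 without PS473@CPs 3, and below 0 without each of the others. Cox4i1, the nuclear subunit of cytochrome oxidase, measured 390.1, 411 and 398 FPKM in PS473@CPs and 353, 364 and 516 FPKM in Free PS473 (log2 difference -0.020, 95% interval -0.54 to 0.50). Atp5f1b, the catalytic beta subunit of ATP synthase, measured 923, 806 and 883 FPKM against 896, 910.1 and 1058 FPKM (log2 difference -0.13, 95% interval -0.42 to 0.16). The nuclear list was added after the mitochondrial values had been seen. Libraries were made from poly(A) RNA.

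**Figure D3:**
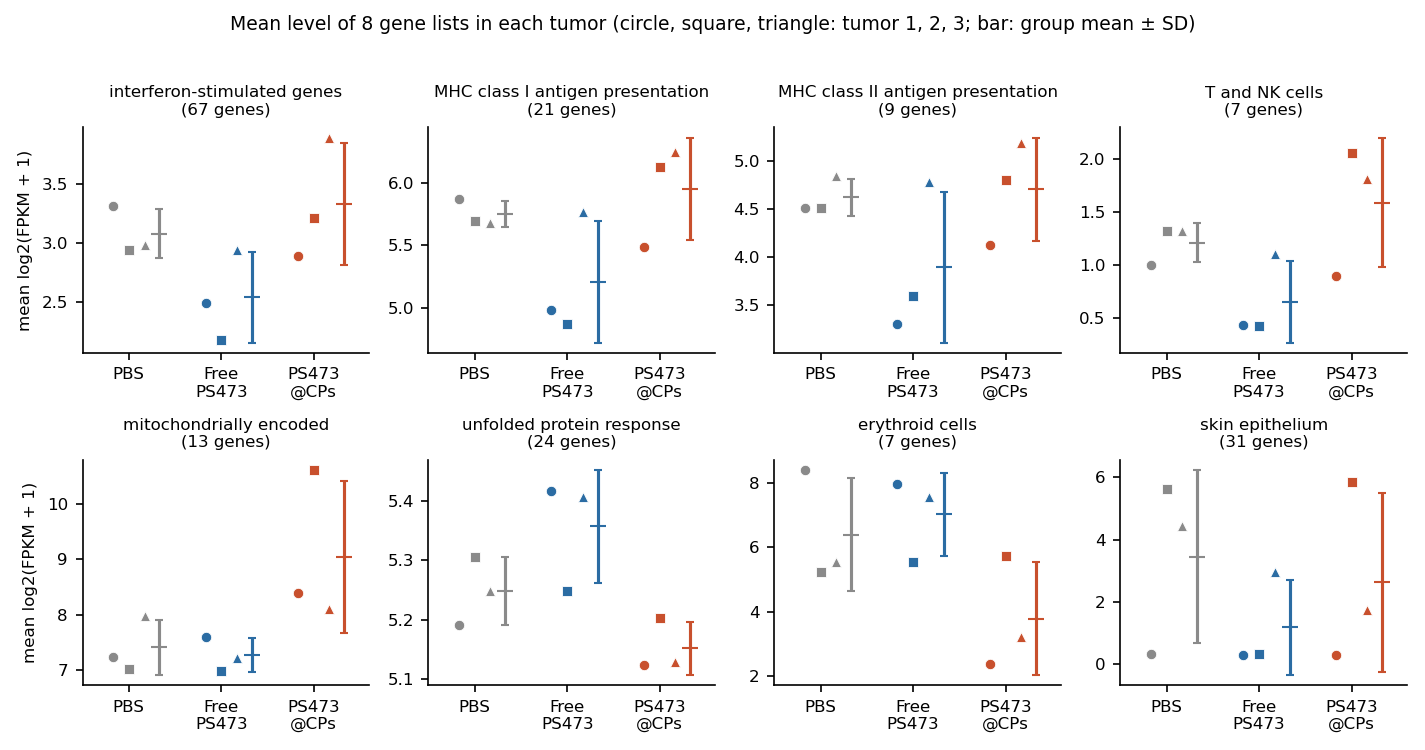
Mean log2(FPKM + 1) of 8 gene lists in each tumor of the PBS, Free PS473 and PS473@CPs groups, with circle, square and triangle for tumors 1, 2 and 3 and a bar at the group mean with its SD (n = 3). The mitochondrially encoded list is higher in every PS473@CPs tumor (8.40, 10.62 and 8.11) than in every Free PS473 tumor (7.60, 6.98 and 7.22), the unfolded protein response is lower in every one, and the immune and skin lists overlap.

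Among the genes of lowest p on the lower side were Trib3 and Chac1, both of the unfolded protein response list. Part of that response runs through the factor ATF4, which is made when amino acids run short or unfolded protein builds up and drives amino acid synthesis and the stress genes Ddit3, Trib3 and Chac1. Trib3, a pseudokinase that restrains ATF4 and Akt, measured 8.66, 10.4 and 12.1 FPKM in PS473@CPs and 32.5, 16.2 and 25.6 FPKM in Free PS473. It was 2.2-fold lower in PS473@CPs without overlap (log2 difference -1.14, SE 0.26, unadjusted p = 0.000512). Chac1, which degrades glutathione, measured 6.53, 4.39 and 4.24 FPKM against 19.99, 9.91 and 9.96 FPKM (log2 difference -1.19, SE 0.33, unadjusted p = 0.00254).

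Asns, asparagine synthetase, measured 39.4, 33.4 and 39.5 FPKM in PS473@CPs and 59.1, 54.1 and 51.5 FPKM in Free PS473 (log2 difference -0.54, SE 0.17, unadjusted p = 0.00713). Ddit3, the stress factor CHOP, measured 9.33, 8.68 and 10.3 FPKM against 15.1, 10.7 and 14.6 FPKM (log2 difference -0.46, SE 0.17). Herpud1, which helps degrade misfolded protein at the endoplasmic reticulum, measured 22.4, 19.8 and 21.0 FPKM against 31.5, 26.8 and 26.6 FPKM (log2 difference -0.40, SE 0.12). These 3 genes did not overlap between the groups either. Atf4 itself did, at 111, 129 and 109.5 FPKM against 153, 122 and 169 FPKM (log2 difference -0.34, SE 0.14, unadjusted p = 0.0323).

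Of the 24 unfolded protein response genes tested, 18 had a log2 difference below 0, with a median of -0.11. Over all genes tested, 61.0% lay below 0, around a median of -0.038. Of the 24, 6 had an unadjusted p under 0.05, all lower, and 5 did not overlap. The shares lower at that p and lower without overlap were 2.57% and 5.75% of all genes tested. The 6 were Trib3, Chac1, Asns, Ddit3, Herpud1 and Atf4. In the chaperone and splicing arms, Hspa5, the chaperone BiP, measured 249, 301 and 221 FPKM in PS473@CPs and 238, 233 and 297 FPKM in Free PS473 (log2 difference 0.0043), and Xbp1 had a log2 difference of -0.11. The count of 6 was 4 to 7 with each tumor left out, and 7 with PS473@CPs 2 and Free PS473 3 both left out. Against PBS, the list median was -0.12 for PS473@CPs and 0.12 for Free PS473, and Trib3 had a log2 difference of -0.84 in PS473@CPs and 0.30 in Free PS473.

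The composite element bound by ATF4 and C/EBP factors was searched as TGATGNAA on both strands in the same promoters. It was present in 3 of the 5 named genes of the list that had a promoter, shown with matches in capitals as 60-base windows.
Chac1 (chr2:119351023-119351082, plus strand): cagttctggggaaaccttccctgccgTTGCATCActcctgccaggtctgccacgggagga
Herpud1 (chr8:94386291-94386350, plus strand): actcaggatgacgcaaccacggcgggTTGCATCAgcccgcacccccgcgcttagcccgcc
Asns (chr6:7693210-7693269, minus strand): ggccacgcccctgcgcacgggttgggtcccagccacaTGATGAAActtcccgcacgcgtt
Counted by gene as before, the element was present in 4 of 21 genes of the unfolded protein response list (19.0%). It was present in 2.22% of the genes tested and in 3.91% of all genes with a promoter. The interferon-stimulated response element was in 0 of the 21.

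Erythroid genes had the largest differences in size among the genes tested. Alas2, the first enzyme of heme synthesis in red cell precursors, measured 0.377, 6.8 and 0.65 FPKM in PS473@CPs and 66.0, 11.9 and 30.7 FPKM in Free PS473 (log2 difference -3.53, SE 1.31, unadjusted p = 0.017). Hbb-bs, a beta globin, measured 17.3, 580.2 and 45.4 FPKM against 3132, 553 and 2966 FPKM (log2 difference -4.45, SE 1.71, unadjusted p = 0.0207). PS473@CPs 2 and Free PS473 2 held alike globin levels, so the groups overlapped. All 7 erythroid genes tested were lower, with a median of -3.71, and 6 had an unadjusted p under 0.05 (2.57% lower over all genes tested). That count was 0 without Free PS473 1, PS473@CPs 1 or PS473@CPs 3, 1 without Free PS473 3, 6 without PS473@CPs 2 and 7 without Free PS473 2. All 7 stayed lower with each tumor left out, with medians of -4.83 to -2.99. PBS tumors held Hbb-bs at 6668, 447 and 476 FPKM.

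Short genes made up much of the remaining lower side. Of the 17 genes lower by more than 2-fold at an unadjusted p under 0.05, 9 were shorter than 200 nucleotides, a class with 488 genes among the 12357 tested. Mir9718, a microRNA gene of 84 nucleotides, measured 5.17, 2.06 and 6.92 FPKM in PS473@CPs and 13.2, 9.86 and 9.29 FPKM in Free PS473 (log2 difference -1.14, SE 0.27). These values came from 4 to 16 against 17 to 22 fragments. Mir12181 rested on 0 to 3 against 8 to 12 fragments. Ighd3-2, an immunoglobulin segment of 16 nucleotides, was listed at 0 in all 3 PS473@CPs tumors and at 3.11, 2.44 and 7.39 FPKM in Free PS473, which stood for 1 to 3 fragments. At this depth such differences are a matter of a few fragments.

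Skin transcripts differed more between tumors of a group than between the groups. Krt5, a keratin of basal skin cells, measured 0, 837 and 30.2 FPKM in PS473@CPs and 0, 0 and 43.1 FPKM in Free PS473. All 31 skin genes tested had a log2 difference above 0, with a median of 1.23, and none had an adjusted or unadjusted p under 0.05 in limma. Without PS473@CPs 2 the median was -0.27. Summed over the list, skin genes reached 16.9 to 7166 FPKM in PS473@CPs, 16.0 to 699 in Free PS473 and 22.1 to 5730 in PBS, and Krt5 and Krt1 were listed at 0 in PS473@CPs 1, Free PS473 1 and Free PS473 2. Col1a1, the main fibrillar collagen, measured 27.5, 271 and 111 FPKM against 18.7, 13.7 and 108 FPKM, and 28 of 33 matrix genes were higher, with a median of 0.59 and 0 at an unadjusted p under 0.05. Without PS473@CPs 2 the matrix median was 0.05, and without Free PS473 3 it was 1.23.

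The interferon, class I and unfolded protein response medians were close to or above those over all 6 tumors in size without PS473@CPs 2 and Free PS473 3. With PS473@CPs 2 and Free PS473 3 both left out, a choice made after seeing the data, the interferon-stimulated median was 1.03 with 40 of 67 genes at an unadjusted p under 0.05. The class I median was then 1.00 with 14 of 21 genes, and that of the unfolded protein response -0.10 with 7 of 24. The mitochondrial median was 0.86 with 5 of 13 genes. The T and NK cell median was 0.86 with 3 of 7. The skin median was then still 0.50, with 28 of 31 genes higher, as PS473@CPs 3 was kept. Free PS473 3 also held the highest interferon-stimulated and class I levels of its group. Leaving it out alone gave medians of 0.94 and 1.09 for these lists. The part of skin content in these medians was not tested. With the skin score as a covariate, also chosen after seeing the data, the interferon-stimulated median was 0.68 with 26 genes.

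**Figure D4:**
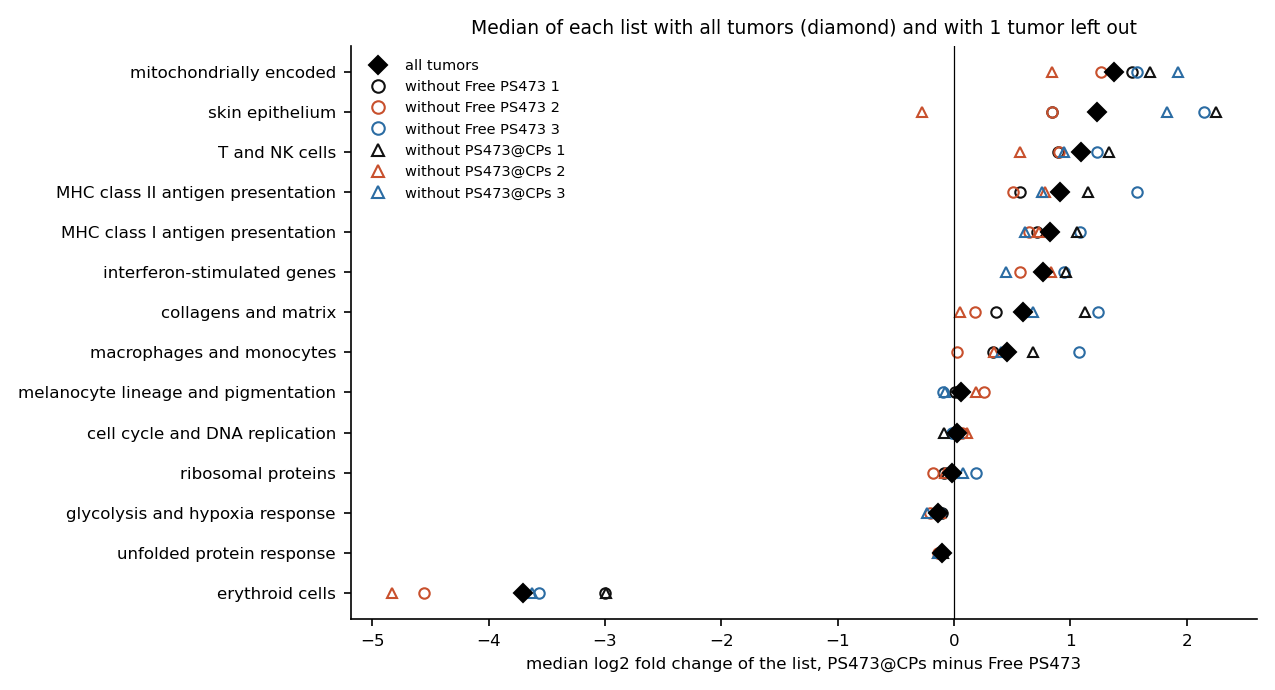
Median log2 fold change (PS473@CPs minus Free PS473) of 14 lists with all tumors (diamond) and with each of the 6 tumors left out (circles for Free PS473 tumors, triangles for PS473@CPs tumors). The interferon-stimulated median stays between 0.45 and 0.97 and the mitochondrial one between 0.85 and 1.93, whereas the skin median spans -0.27 to 2.25.

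Lists of pigmentation and of general cell functions sat near 0. Of 21 pigmentation genes, 13 were higher and 8 lower with a median of 0.058, and Dct, a melanin enzyme, measured 2298, 2087 and 2882 FPKM in PS473@CPs and 2389, 2994 and 2345 FPKM in Free PS473. The median was 0.026 for 39 cell cycle genes and -0.018 for 48 ribosomal protein genes. For the route of polymer uptake, 19 of 38 endosome, lysosome and autophagy genes were higher and 19 lower, with a median of 4.07e-05. The median was -0.032 for 30 genes of cholesterol and fatty acid synthesis. None of the genes in these 5 lists had an adjusted or unadjusted p under 0.05 in limma. With each tumor left out, the pigmentation median was -0.093 to 0.26 and the ribosomal protein median -0.18 to 0.19, the latter with all 48 genes above 0 and 2 at an unadjusted p under 0.05 without Free PS473 3.

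Set against PBS, the interferon and mitochondrial differences had different shapes. Both contrasts share the 3 PBS tumors, and their values are given side by side. No gene was called in either (0.0% each), with limma's lowest adjusted p above 0.999. At an unadjusted p under 0.05, PS473@CPs had 111 genes higher (0.898%) and 147 lower (1.19%) than PBS, and Free PS473 had 156 higher (1.26%) and 68 lower (0.55%). The interferon-stimulated median was 0.27 for PS473@CPs and -0.51 for Free PS473, and the class I median 0.21 and -0.53. The mean log2(FPKM + 1) of the interferon list averaged 3.08 in PBS, between 2.54 in Free PS473 and 3.33 in PS473@CPs. Single tumors overlapped, with PBS at 3.32, 2.94 and 2.99.

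The mitochondrial median was 1.28 for PS473@CPs and -0.090 for Free PS473. COX1 measured 3432, 3120 and 4306 FPKM in PBS, below each PS473@CPs tumor. PBS 3 had the highest mitochondrial share of its group, 1.49% of fragments, just under the 1.52% of PS473@CPs 3. The erythroid median was -3.07 for PS473@CPs and 0.64 for Free PS473. The skin median was -0.86 and -2.31, and 2 of the 3 PBS tumors were rich in skin.

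**Figure D5:**
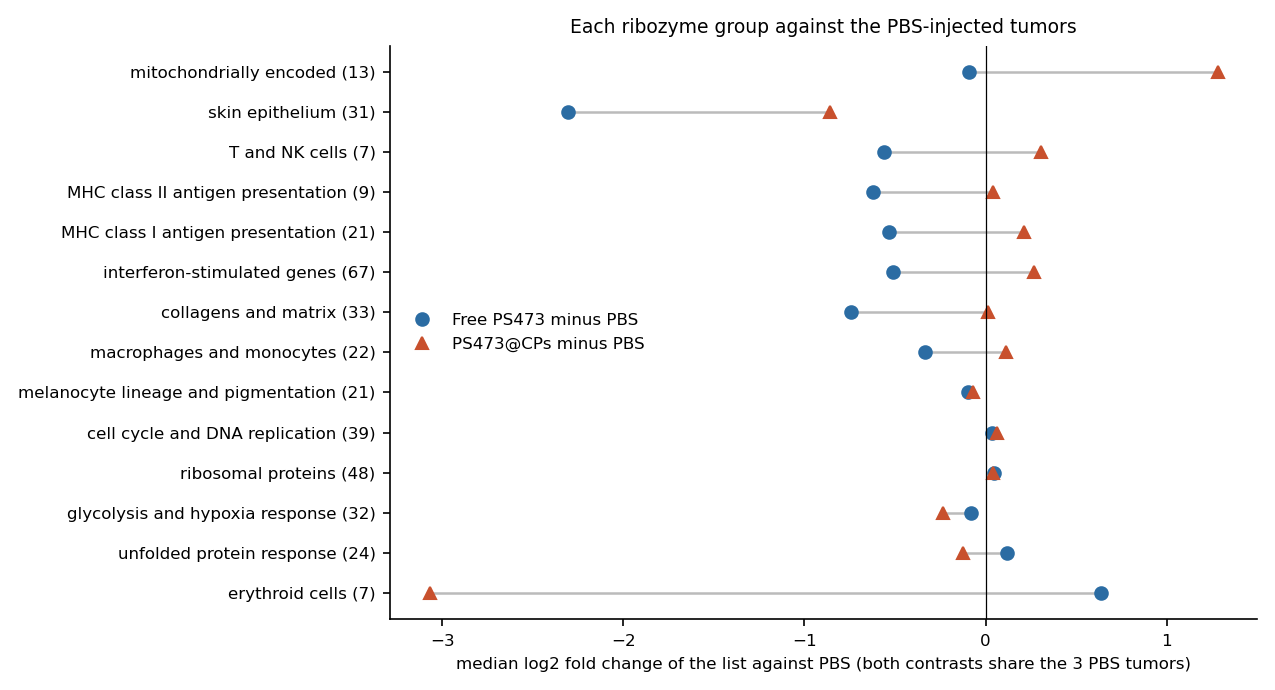
Median log2 fold change of 14 lists against the 3 PBS tumors, with circles for Free PS473 and triangles for PS473@CPs; the number of genes is in parentheses. The interferon-stimulated list lies at -0.51 and 0.27 and the mitochondrially encoded list at -0.090 and 1.28.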

How the data were processed

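RNA was measured in 18 B16F10 tumors, 3 in each of 6 treatment groups, and tumors were grouped by the treatment in their titles. The authors selected mRNA with oligo(dT) beads and deposited FPKM values, scaled for gene length and assigned fragments, for 41079 genes. The genome build is GRCm39 per the submitters' processing notes, and the aligner, counting tool and strand setting are not given in the sources used here. The columns of Free PS473 tumors carry the name of the vehicle beside that of the ribozyme. Fragments per tumor were recovered from the steps of low values. Only 47.3% to 51.4% of values below 20 fragments came out whole within 0.02, so no count model was used.

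Values were transformed to log2(FPKM + 1), so that differences of low genes are understated. The 12357 genes whose average over 18 tumors reached 1 FPKM were fitted with limma 3.58.1 in R 4.3.3 (1 mean per group over all 6 groups, trend on mean expression), with Benjamini-Hochberg adjustment over all of them and a call at an adjusted p under 0.05 and a change above 2-fold. The procedure was tested on simulated data. Single genes were also compared by two-sided exact permutation tests. Python 3.11.15 with numpy 2.4.6, pandas 2.3.3 and matplotlib 3.10.9 made the tables and figures.

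The members and the 39 gene lists (984 symbols, 752 of them tested) were chosen with earlier results of these data known, so lists are described by counts and medians with no test of their own; the nuclear respiratory chain list was added after the mitochondrial values had been seen. Named genes are the 10 of lowest p in each direction among those above 2-fold, genes that the study names, up to 5 per list by p, the 3 of lowest p in each direction without overlap, and defining markers of cell types. Tap1, Nlrc5, Ifit1, Ifnar1, Ifngr1, Mavs, Cox4i1, Hspa5, Atf4, Xbp1, ATP6, ND5, ND6 and CYTB are list members named after their values were seen. Some list members are not reported here by name. Same-numbered tumors of both groups had correlations of their deviations of 0.48, -0.63 and -0.45, so the numbers do not pair them. No tumor repeated another's values, and no column of tumor values was left out of the fit. Promoters came from RefSeq (GRCm38.p6) and the Cd274 transcript from GENCODE (GRCm38), both used for sequences only. Alternatives are in the closing section.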

Additional observations from a re-analysis of the deposited data

How the results depend on the processing

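No gene was called (0) in the fit described or with each tumor left out, with a pseudocount of 0.1, no filter (1 gene of 31286 had an adjusted p under 0.05, below 2-fold) or a filter at a mean of 0.1 FPKM, other scalings, the 6 tumors alone or no trend. Array weights gave 102 calls (85 higher, 17 lower), but limma warned that their estimation had not converged; weights estimated gene by gene, added after seeing the data, gave 1, Ifitm3. The 75 genes higher by 2-fold at an unadjusted p under 0.05 were 130 with a pseudocount of 0.1, 41 with the 6 tumors alone, 198 with array weights, 165 with gene-by-gene weights, 131 with both skin-rich tumors left out, and 25 to 218 with 1 tumor left out (25 without Free PS473 2, 218 without Free PS473 3). The 17 lower genes were 37 with array weights and 11 to 29 with 1 tumor left out.

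Cd274 reversed to -0.043 without PS473@CPs 3, and lay between -0.043 and 0.45 with each tumor left out; it was 0.51 with array weights, 0.48 with both skin-rich tumors left out and 0.47 with gene-by-gene weights. With 1 tumor left out, members at an unadjusted p under 0.05 were 7 to 47 of the interferon-stimulated list, 3 to 16 of MHC class I, 8 to 13 of the mitochondrial list, 0 to 7 of the erythroid list and 4 to 7 of the unfolded protein response. MHC class I had 8 with the 6 tumors alone, the mitochondrial list 5 with both skin-rich tumors left out, and the unfolded protein response 10 with array weights. With the replicate block, calls were 0, with 78 genes higher and 18 lower at 2-fold and an unadjusted p under 0.05, and no call changed; the numbers do not pair the tumors. The causes of these shifts were not tested. Depth limits the short and weak genes most.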

Other observations

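In the smaller lists named here, no member had an adjusted p under 0.05 in limma, and over all genes tested 61.0% were lower in PS473@CPs with a median of -0.038. At an unadjusted p under 0.05, 1.59% of all genes tested were higher and 2.57% lower. Without overlap, 1.8% were higher and 5.75% lower. Of 21 p53 targets and apoptosis genes tested, 15 were lower in PS473@CPs than in Free PS473, with a median of -0.078. Bbc3, the cell death protein PUMA, measured 2.28, 1.89 and 2.22 FPKM in PS473@CPs and 4.93, 2.37 and 4.01 FPKM in Free PS473 (log2 difference -0.57, SE 0.17, unadjusted p = 0.00499). Ccng1, another p53 target, measured 31.6, 33.3 and 28.7 FPKM against 52.2, 35.6 and 39.5 FPKM (log2 difference -0.41, SE 0.17). Neither gene overlapped between the groups. On the higher side, Casp8 did not overlap either, with a log2 difference of 0.19, and was the 1 member there at an unadjusted p under 0.05. The list median lay between -0.20 and -0.068 with each tumor left out. Of 32 glycolysis and hypoxia genes, 25 were lower with a median of -0.14, and Pdk1, which holds pyruvate back from mitochondria, was the 1 member at an unadjusted p under 0.05, at 11.6, 11.0 and 14.2 FPKM against 17.6, 14.5 and 17.5 FPKM.

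On the higher side, all 16 complement genes tested had a log2 difference above 0, with a median of 0.51 (0.086 to 0.80 with each tumor left out) and 1 at an unadjusted p under 0.05. That gene, Serping1, the C1 inhibitor, measured 5.1, 35.1 and 18.9 FPKM in PS473@CPs and 2.89, 1.81 and 9.55 FPKM in Free PS473, with overlap. Of 24 immediate early genes, 22 were higher with a median of 0.42, and 3 had an unadjusted p under 0.05, a count that was 0 to 10 with each tumor left out. Without PS473@CPs 2, the median was 0.062 with 16 higher, and without Free PS473 3 it was 0.73. Fos measured 89.4, 281 and 90.1 FPKM against 39.9, 68.7 and 73.3 FPKM without overlap (log2 difference 1.15, SE 0.49). Of 10 pyroptosis and necroptosis genes, 7 were higher with a median of 0.48, among them Gsdmd, the pore-forming gasdermin D, at 2.78, 4.12 and 4.9 FPKM against 1.69, 1.53 and 3.39 FPKM (log2 difference 0.65, SE 0.26), with overlap. The median of this list was 0.19 without PS473@CPs 2.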
